A study of Mus musculus with 9 samples.

Results

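The Hox genes of the A, B, C and D clusters were taken as every probe whose symbol is Hoxa, Hoxb, Hoxc or Hoxd followed by a number. The rule found 57 of the 45281 probes on the array, for 39 of 28909 gene symbols. They comprise 11 genes of the A cluster, 10 of the B cluster, 9 of the C cluster and 9 of the D cluster, in 13 paralogue groups. Of the 39 genes, 26 had 1 probe and 13 had more than 1.

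Hox genes encode homeodomain transcription factors that give cells of the embryo their position along the head-to-tail axis. In the mouse they lie in 4 clusters on chromosomes 6 (A), 11 (B), 15 (C) and 2 (D), and genes of the same paralogue number descend from a common ancestral gene. Low-numbered genes are switched on first, at the primitive streak, and set hindbrain identities; higher-numbered genes follow later in the streak and tail bud and pattern neck, trunk and tail. Wnt signalling, CDX factors, FGF and retinoic acid are known inputs to this sequence, and PBX and MEIS proteins bind DNA together with HOX proteins.

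The study profiled RNA from mouse epiblast stem cells (EpiSCs) on 9 Illumina bead arrays, read in a single colour. EpiSCs are pluripotent cells resembling the epiblast after implantation. All cells were male, of 129 background, carried a dsRed2 reporter and were kept in activin A at 20 ng/ml and bFGF at 10 ng/ml. With 3 biological replicates in each, the groups were untreated cells sorted as dsRed2 positive, untreated cells sorted as dsRed2 negative, and cells exposed for 48 h to CHIRON at 3 µM. No more than that name is given for the compound; it is commonly used for CHIR99021, a GSK3 inhibitor that activates Wnt/β-catenin signalling. What drives dsRed2 is not named, nor is it settled by the labels if treated cells went through the sorter. Effects of CHIRON and of sorting therefore cannot be told apart. The labels do not say whether the replicates came from separate cultures or whether the line is a clone.

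The median probe signal lay between 95.1 and 109.1 over the 9 arrays. The share of probes detected lay between 36.7% and 38.5% on the 6 sorted arrays and between 39.3% and 41.1% on the 3 treated arrays. A probe was called detected where its deposited detection p-value was below 0.05. The 10 epiblast markers looked at were detected on each of the 9 arrays, but not at equal levels. In the tests described below, 6 of the 10 were lower and 2 higher in treated than in dsRed2 negative cells. Of all genes tested, 19.9% were lower and 20.1% higher. The treated arrays were unequal: over 1537 bright genes the SD of the log2 difference was 0.123 between treated replicates 1 and 2, but 0.339 and 0.347 between replicate 3 and those. Sorted arrays of 1 group differed by 0.204 to 0.29 on this measure. The Hox calls are therefore also given without replicate 3.

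Few Hox genes were detected in sorted cells and many more in treated cells. Of the 39 genes, 2 were detected on all 3 dsRed2 positive arrays, 1 on all 3 dsRed2 negative arrays and 12 on all 3 treated arrays. These are 5.1%, 2.6% and 30.8% of the Hox genes. Over all 28909 genes of the table the shares were 36.5%, 36.5% and 38.9%, above the Hox share in each group. Hoxa13 was detected in all 3 groups and Hoxc10 in dsRed2 positive and treated cells. The other 10 genes detected on every treated array were Hoxa2, Hoxa5, Hoxa7, Hoxb1, Hoxb2, Hoxb7, Hoxc4, Hoxc6, Hoxc9 and Hoxd9.

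Per array, the dsRed2 positive replicates 1, 2 and 3 had 3, 3 and 5 detected Hox genes, and the dsRed2 negative replicates also had 3, 3 and 5. The treated replicates had 17, 14 and 24, or 43.6%, 35.9% and 61.5% of the Hox genes, where 44.7%, 43.3% and 43.7% of all genes were detected. On replicate 3 alone the Hox share was above that of all genes. At this threshold, 57 probes without signal would give 2.85 detected probes per array, and the sorted counts were near that number. Yet the same probes recurred. Those of Hoxa13, Hoxc10 and Hoxb2 were detected on 3, 3 and 2 dsRed2 positive and 3, 2 and 2 dsRed2 negative arrays. The match in number therefore does not show that these genes lacked signal. The mean number of detected Hox genes was 18.33 ± 5.13 (SD, n = 3) in treated cells and 3.67 ± 1.15 (SD, n = 3) in each sorted group. The treated and sorted arrays did not overlap. A two-sided exact permutation test gave p = 0.1 for treated against either sorted group, the smallest p that 3 against 3 arrays allow, and p = 1.0 between the sorted groups.

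Detection in treated cells was spread over the 4 clusters. It held on all 3 arrays for 4 of 11 genes of the A cluster, 3 of 10 of the B cluster, 4 of 9 of the C cluster and 1 of 9 of the D cluster. By paralogue number, it held for 1 of 3 genes of group 1, 2 of 2 of group 2, 1 of 4 of group 4, 1 of 3 of group 5, 1 of 3 of group 6, 2 of 2 of group 7, 2 of 4 of group 9, 1 of 3 of group 10 and 1 of 4 of group 13. None of groups 3, 8, 11 and 12 qualified. For paralogues 1 to 3, 4 to 8 and 9 to 13 the counts were 3 of 8, 5 of 15 and 4 of 16. In the sorted groups the genes detected on all 3 arrays, Hoxa13 and Hoxc10, belong to paralogues 9 to 13. With 1 detecting array in place of 3, the counts were 5 in dsRed2 positive, 7 in dsRed2 negative and 27 in treated cells. As probes without signal would give 2.85 detected probes per array, the sorted counts at this setting are not read as signal. On no treated array were Hoxa3, Hoxa6, Hoxa10, Hoxa11, Hoxb8, Hoxb13, Hoxc5, Hoxc11, Hoxc12, Hoxd1, Hoxd12 and Hoxd13 detected. These are 30.8% of the Hox genes, where 50.65% of all genes were detected on no treated array.

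**Figure D1:**
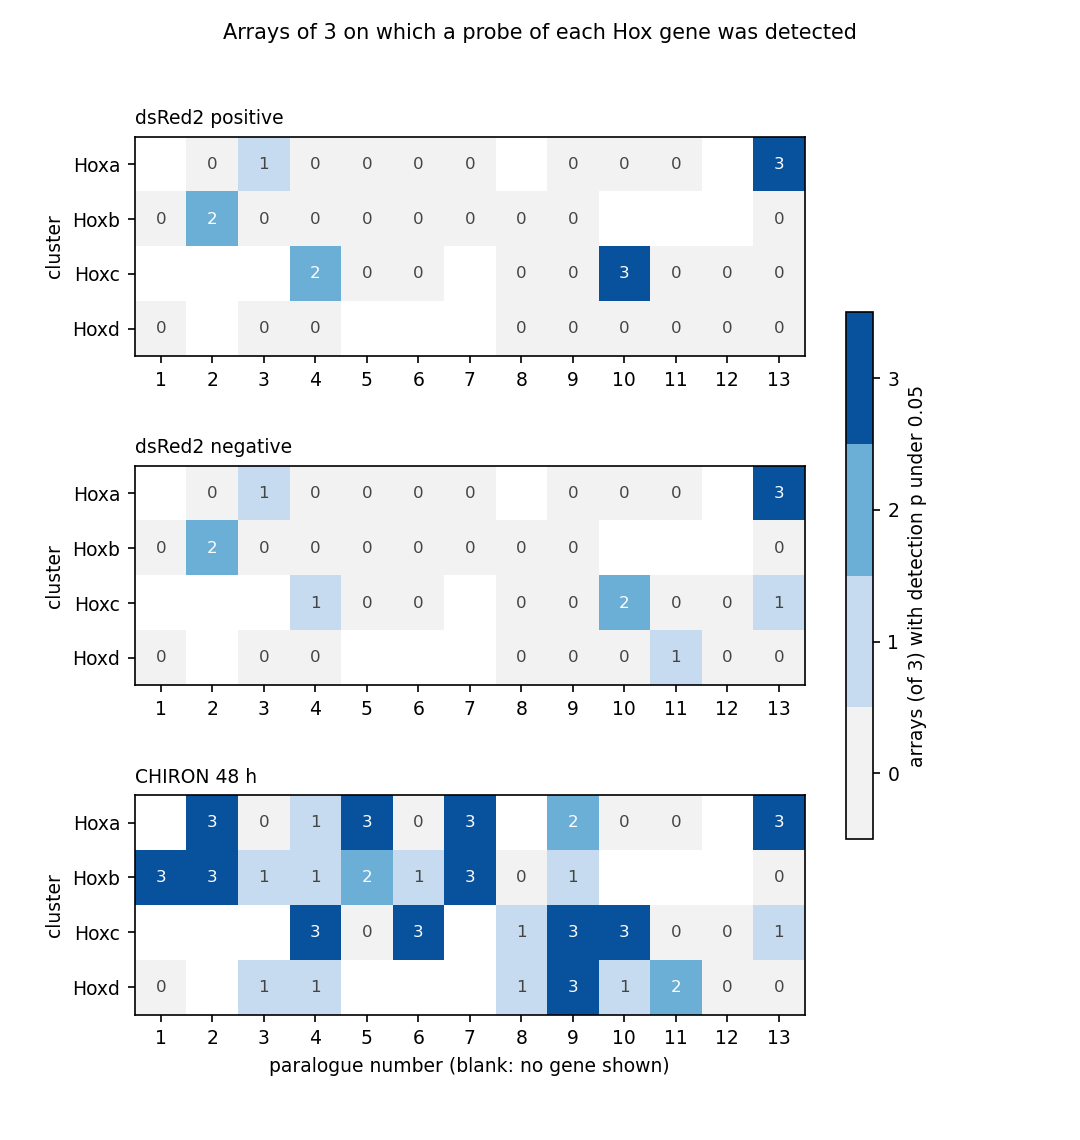
Number of arrays, of 3 per group, on which a probe was detected for each of 38 Hox genes (detection p-value below 0.05), by cluster (rows) and paralogue number (columns); blank cells have no gene shown. In the sorted groups most cells hold 0, and in the treated group 12 genes reach 3, from paralogue 1 to paralogue 13.

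For the tests, signals were background-corrected, quantile-normalized and put on a log2 scale, and probes detected on at least 3 of 9 arrays were kept. This left 13 of the 39 Hox genes among 13204 genes tested with limma; 26 Hox genes were left out because no probe of theirs was detected on that many arrays, among them Hoxd8 and Hoxd10, which were detected on 1 array. Of the 13, 8 were detected on the 3 treated arrays and on no sorted array, so they passed the filter through the treated group alone. This selection favours a difference, so their calls are not separate from their detection. Hoxa2, 1 of the 8, was still not called against dsRed2 negative cells. Against dsRed2 negative cells, 8 of the 13 were higher in treated cells and 0 lower at an adjusted p below 0.05. Of all genes tested, 20.1% were higher and 19.9% lower in that comparison, 40.0% in either direction. Against dsRed2 positive cells, 9 were higher and 0 lower, with 20.6% and 20.5% of all genes, 41.1% in either direction. Both comparisons use the same treated arrays. Fold changes against a group with no detecting array are lower bounds, set against the lowest detected signal. In bulk RNA, fewer expressing cells and less RNA per cell cannot be told apart. All values below are normalized log2 signals of 1 probe per gene, which are not compared between genes, and errors of differences are standard errors from the fit.

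Among paralogues 1 to 3, Hoxb1 and Hoxb2 rose in both comparisons and Hoxa2 in that with dsRed2 positive cells. Hoxb1, which marks the early streak and later the fourth segment of the hindbrain, had log2 signals of 4.20, 4.22 and 4.32 in dsRed2 positive cells, 4.19, 4.36 and 4.24 in dsRed2 negative cells, and 6.81, 6.58 and 5.62 in treated cells. All treated arrays lay above all sorted arrays, and replicate 3 was the lowest of the treated ones. It rose at least 3.08-fold over dsRed2 negative cells (2.07 ± 0.25 on the log2 scale; limma, adjusted p = 0.000116) and at least 3.07-fold over dsRed2 positive cells (2.09 ± 0.25; limma, adjusted p = 0.000104). A second Hoxb1 probe read 6.48, 6.51 and 5.52 on the treated arrays and 4.21 to 4.34 on the sorted arrays, again with replicate 3 the lowest of the treated arrays. Hoxb1 is known to sustain its own expression through sites for PBX and HOX proteins upstream of its start. The 250 bases before its start are shown for that reason, from RefSeq on build GRCm38.p6, at chr11:96365508-96365757 on the plus strand. Capitals mark a match to the PBX-HOX motif TGATNNAT, from base -162 to base -155 counted back from the start.
Hoxb1: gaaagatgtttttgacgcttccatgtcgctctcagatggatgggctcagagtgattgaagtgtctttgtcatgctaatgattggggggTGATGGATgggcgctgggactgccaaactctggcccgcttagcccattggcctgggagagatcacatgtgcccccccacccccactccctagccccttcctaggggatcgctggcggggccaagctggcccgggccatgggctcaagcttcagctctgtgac

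Hoxb2, a regulator of hindbrain segments downstream of HOXB1, read 4.65, 4.77 and 4.78 in dsRed2 positive cells, 5.05, 4.84 and 4.68 in dsRed2 negative cells, and 6.10, 5.98 and 6.20 in treated cells. The treated arrays lay close together and above all sorted arrays. It was detected on 2 arrays of each sorted group, and rose by 1.24 ± 0.13 over dsRed2 negative (limma, adjusted p = 5.03e-05) and by 1.36 ± 0.13 over dsRed2 positive cells (limma, adjusted p = 2.71e-05). Hoxa2, which patterns the hindbrain and the second pharyngeal arch, read 4.38, 4.34 and 4.59 in dsRed2 positive, 4.64, 4.60 and 4.48 in dsRed2 negative and 4.63, 4.77 and 4.96 in treated cells. Treated and dsRed2 negative arrays overlapped, and Hoxa2 was not called against them (0.21 ± 0.13; limma, adjusted p = 0.216). Against dsRed2 positive cells it rose at least 1.05-fold (0.35 ± 0.13; limma, adjusted p = 0.048), a call lost in 17 of 21 alternatives, among them without treated replicate 3 (0.27, limma adjusted p = 0.134), treated replicate 2, any negative replicate and positive replicates 1 or 2. A second Hoxa2 probe was detected on treated replicate 3 alone, at 5.06. It read 4.37 and 4.52 on treated replicates 1 and 2 and 4.26 to 4.53 on the sorted arrays. Among other genes of groups 1 to 3, Hoxb3 was detected on treated replicate 1, Hoxd3 on replicate 3, and Hoxa3 and Hoxd1 on none.

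Among paralogues 4 to 8, 4 genes rose in both comparisons: Hoxa5, Hoxc6, Hoxa7 and Hoxb7. Hoxa5, needed for neck vertebrae and lung, read 4.15, 4.25 and 4.20 in dsRed2 positive, 4.25, 4.32 and 4.15 in dsRed2 negative and 4.98, 4.69 and 6.39 in treated cells. The groups did not overlap, and replicate 3 was far above the other treated arrays. The rise was at least 1.56-fold over either sorted group, at 1.12 ± 0.34 over dsRed2 negative (limma, adjusted p = 0.0225) and 1.16 ± 0.34 over dsRed2 positive cells (limma, adjusted p = 0.0186). The call against dsRed2 negative cells was lost without negative replicate 1 (1.12, limma adjusted p = 0.0555) or 3 (1.07, limma adjusted p = 0.0652), and that against dsRed2 positive cells without positive replicate 1 (1.13, limma adjusted p = 0.0525) or 3 (1.16, limma adjusted p = 0.0508).

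Hoxc6, a gene of the thoracic region, read 4.23, 4.31 and 4.32 in dsRed2 positive, 4.23, 4.58 and 4.65 in dsRed2 negative and 5.46, 5.79 and 7.58 in treated cells. The treated arrays lay above all others, with replicate 3 highest. It rose at least 2.95-fold over dsRed2 negative (1.79 ± 0.42; limma, adjusted p = 0.00673) and at least 2.94-fold over dsRed2 positive cells (1.99 ± 0.42; limma, adjusted p = 0.00362). Hoxa7, a trunk gene, read 4.51, 4.37 and 4.41 in dsRed2 positive, 4.36, 4.38 and 4.28 in dsRed2 negative and 5.29, 5.32 and 7.03 in treated cells. Treated replicates 1 and 2 were nearly equal and above every sorted array, and replicate 3 stood higher still. The rise was at least 2.24-fold over either sorted group (1.54 ± 0.37 over dsRed2 negative, limma adjusted p = 0.00703; 1.45 ± 0.37 over dsRed2 positive, limma adjusted p = 0.00942).

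Hoxb7, the paralogue of Hoxa7 in the B cluster, read 4.31, 4.64 and 4.49 in dsRed2 positive, 4.32, 4.36 and 4.33 in dsRed2 negative and 4.99, 5.32 and 6.38 in treated cells. Its treated arrays lay above all sorted arrays, with replicate 3 highest. It rose at least 1.8-fold over dsRed2 negative (1.22 ± 0.28; limma, adjusted p = 0.00595) and at least 1.79-fold over dsRed2 positive cells (1.08 ± 0.28; limma, adjusted p = 0.0109). A second Hoxb7 probe read 5.29, 5.19 and 6.11 in treated cells and 4.22 to 4.32 in sorted cells. Hoxc4, of the neck region, was detected on every treated array but did not stand above the sorted ones: it read 4.75, 4.60 and 5.39 in dsRed2 positive, 4.61, 5.09 and 4.67 in dsRed2 negative and 4.67, 4.91 and 4.66 in treated cells. The groups overlapped, and the differences were −0.04 ± 0.21 from dsRed2 negative (limma, adjusted p = 0.891) and −0.17 ± 0.21 from dsRed2 positive cells (limma, adjusted p = 0.567). Of the remaining genes of groups 4 to 8, Hoxb5 was detected on treated replicates 2 and 3 and Hoxc8 on replicate 1. Hoxa4, Hoxb4, Hoxb6, Hoxd4 and Hoxd8 were detected on replicate 3 alone, and Hoxa6, Hoxb8 and Hoxc5 on none. Hoxb4 read 4.57, 4.54 and 4.82 in treated and 4.22 to 4.33 in sorted cells, all near background. In a fit without the filter it was called against dsRed2 negative (0.39, limma adjusted p = 0.00903) and dsRed2 positive cells (0.33, limma adjusted p = 0.0182).

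In paralogue group 9, Hoxc9 and Hoxd9 rose in both comparisons. Hoxc9, which sets thoracic identity of motor neurons, read 4.23, 4.53 and 4.34 in dsRed2 positive, 4.31, 4.37 and 4.48 in dsRed2 negative and 5.10, 5.27 and 7.51 in treated cells. Replicates 1 and 2 stood modestly above every sorted array and replicate 3 well above both. It rose at least 2.38-fold over dsRed2 negative (1.57 ± 0.49; limma, adjusted p = 0.0257) and at least 2.37-fold over dsRed2 positive cells (1.60 ± 0.49; limma, adjusted p = 0.0234). Hoxd9, which acts in the lumbar spinal cord and limbs, read 4.49, 4.32 and 4.69 in dsRed2 positive, 4.42, 4.64 and 4.39 in dsRed2 negative and 5.16, 5.21 and 7.18 in treated cells. The groups did not overlap, and replicate 3 was again the highest. It rose at least 2.2-fold over dsRed2 negative (1.36 ± 0.43; limma, adjusted p = 0.0267) and at least 2.19-fold over dsRed2 positive cells (1.35 ± 0.43; limma, adjusted p = 0.027). A second Hoxd9 probe read 4.73, 4.67 and 6.73 in treated cells and 4.24 to 4.45 in sorted cells. The calls of Hoxc9 and Hoxd9 against dsRed2 negative cells were lost without any one of negative replicates 1 or 3, and for Hoxc9 also 2, with limma adjusted p between 0.0574 and 0.0733. Those against dsRed2 positive cells were lost without positive replicate 1 or 3, and for Hoxd9 also 2, with limma adjusted p between 0.0517 and 0.0726. With the authors' deposited log2 values neither gene was called in either comparison, with limma adjusted p between 0.0799 and 0.0912.

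Hoxc10, a lumbar gene, was detected in most sorted arrays as well. It read 4.96, 4.90 and 4.79 in dsRed2 positive, 4.86, 4.75 and 4.95 in dsRed2 negative and 5.30, 4.95 and 5.83 in treated cells. Treated replicate 2 lay within the range of the sorted arrays, and the gene was not called against dsRed2 negative (0.50 ± 0.19; limma, adjusted p = 0.0587) or dsRed2 positive cells (0.48 ± 0.19; limma, adjusted p = 0.07). It was called against dsRed2 negative cells with replicate number as a block in the fit of 9 arrays (0.50, limma adjusted p = 0.0474), and against both groups without treated replicate 2 (0.71 and 0.68, limma adjusted p = 0.0107 and 0.0123) or with treated replicates 1 and 2 averaged (limma, adjusted p = 0.0349 and 0.0407). Its second probe was detected on treated replicate 3 alone, at 6.21 against 4.60 and 4.52 on replicates 1 and 2 and 4.21 to 4.37 on the sorted arrays. Hoxa13, needed for digits and hindgut, read 5.02, 5.26 and 5.04 in dsRed2 positive, 4.93, 4.93 and 5.15 in dsRed2 negative and 4.88, 5.16 and 5.12 in treated cells. The groups overlapped and did not pass the test (0.05 ± 0.13 from dsRed2 negative, limma adjusted p = 0.79; −0.05 ± 0.13 from dsRed2 positive, limma adjusted p = 0.784). Of its 3 probes this was the one detected on every array; each of the others was detected on at most 1 array of a group. Hoxd11, detected on treated replicates 1 and 2 and on 1 dsRed2 negative array, differed by 0.16 ± 0.15 from dsRed2 negative (limma, adjusted p = 0.432) and by 0.34 ± 0.15 from dsRed2 positive cells (limma, adjusted p = 0.0868). Without treated replicate 3 it was called against dsRed2 positive cells (0.45, limma adjusted p = 0.0328).

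**Figure D2:**
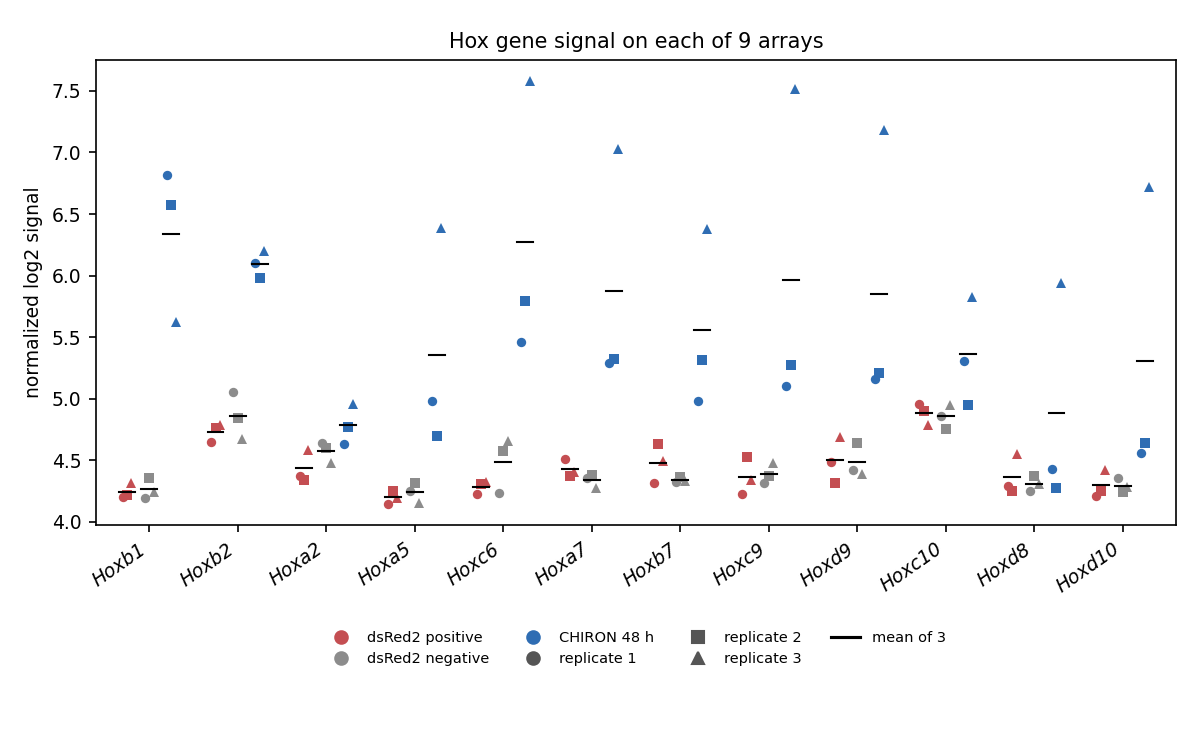
Normalized log2 signal (vertical axis) of 12 Hox genes on each array, coloured by group, with replicates 1, 2 and 3 as circles, squares and triangles and the mean of 3 as a bar. The treated triangles stand above the treated circles and squares for Hoxa5, Hoxc6, Hoxa7, Hoxb7, Hoxc9, Hoxd9, Hoxd8 and Hoxd10, and below them for Hoxb1 (5.62 against 6.81 and 6.58).

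**Figure D3:**
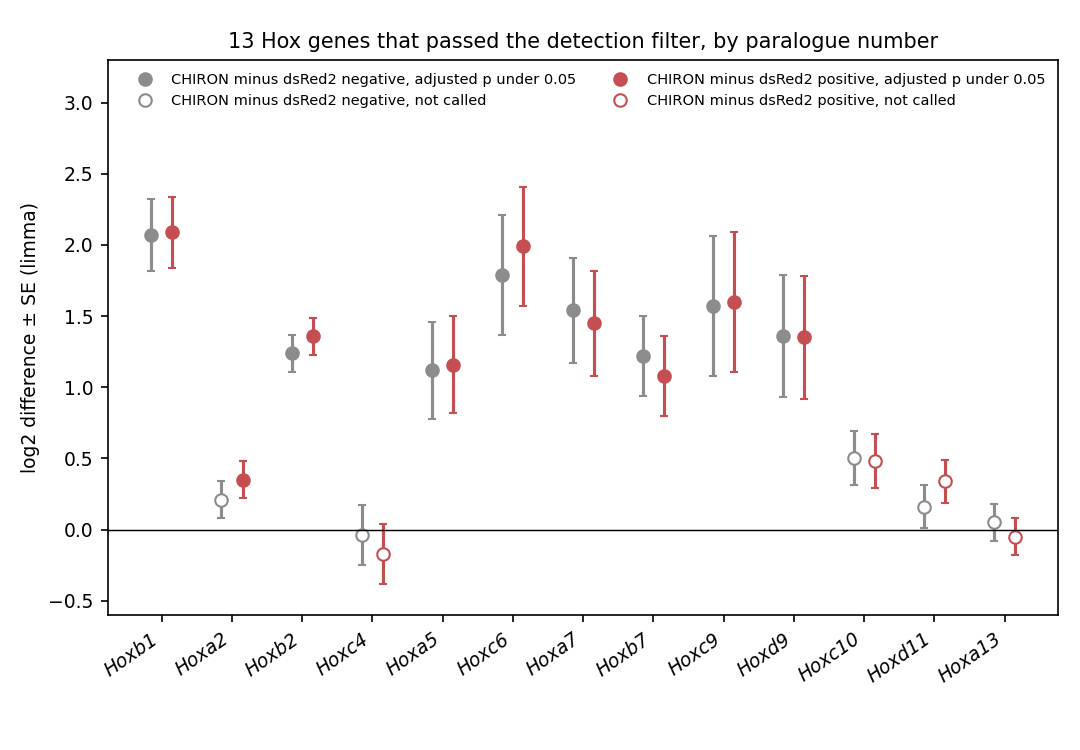
Log2 differences ± SE (limma, n = 3 arrays per group) of treated from dsRed2 negative (grey) and dsRed2 positive cells (red) for the 13 Hox genes tested, in order of paralogue number; filled points have an adjusted p below 0.05. Hoxb1 and Hoxb2 have the narrowest errors among the larger differences, at 0.25 and 0.13, and Hoxc9 the widest at 0.49.

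No Hox gene was called between the sorted groups. In dsRed2 positive against dsRed2 negative cells, 0 of the 13 Hox genes were called by limma, with 0.0% of all 13204 genes called and an adjusted p of 1.0 for each of the 13. At an unadjusted p below 0.05 there were 0 Hox genes and 368 of all genes. The differences of the 13 genes ran from −0.20 (Hoxc6) to 0.14 (Hoxb7). The sorted arrays are paired by replicate number, and the fit of the 6 sorted arrays with that block also called 0 Hox genes and 3 of all genes, each lower in dsRed2 positive cells.

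Treated replicate 3 differed from replicates 1 and 2 in which Hox genes it detected and at what level. This comparison is between replicates of 1 group and is given as a description with no test. By cluster A, B, C and D, replicate 1 detected 6, 4, 5 and 2 genes, replicate 2 detected 4, 4, 4 and 2, and replicate 3 detected 7, 7, 5 and 5. Detected on replicate 3 and on neither other replicate were 9 of 39 Hox genes (23.1%), against 1.95% of all genes: Hoxa4, Hoxb4, Hoxb6, Hoxb9, Hoxc13, Hoxd3, Hoxd4, Hoxd8 and Hoxd10. The reverse, detection on replicates 1 and 2 but not on 3, held for 1 Hox gene, Hoxd11 (2.6%), against 1.56% of all genes. The share of all probes detected on replicate 3 (40.1%) lay between those of replicates 1 (41.1%) and 2 (39.3%).

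In the D cluster, replicate 3 detected 5 consecutive genes, Hoxd3, Hoxd4, Hoxd8, Hoxd9 and Hoxd10, while Hoxd1 at the low-numbered end and Hoxd11, Hoxd12 and Hoxd13 at the other end were not detected there. Hoxd10, a lumbar motor neuron gene, read 4.56, 4.64 and 6.72 on treated replicates 1, 2 and 3, and 4.21 to 4.42 on the sorted arrays. Hoxd8 read 4.43, 4.27 and 5.94 on the treated and 4.25 to 4.55 on the sorted arrays. In both genes replicates 1 and 2 lay near the sorted arrays and replicate 3 stood alone. Hoxd4, a gene of the neck region, read 4.43, 4.56 and 5.33, and Hoxb5 read 4.59, 4.71 and 5.41. Hoxc13 was also detected on 1 dsRed2 negative array, and its replicate 3 signal of 4.96 was near that one at 4.84. The other genes detected on replicate 3 alone stood between 4.73 and 4.93 there, little above the lowest detected signal of that array (4.64).

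Relative to the mean of replicates 1 and 2, replicate 3 was higher by 2.33 for Hoxc9, 2.12 for Hoxd10, 2.00 for Hoxd9, 1.95 for Hoxc6, 1.73 for Hoxa7, 1.59 for Hoxd8, 1.55 for Hoxa5 and 1.23 for Hoxb7 on the log2 scale. Hoxb1 was lower by 1.07 (a difference of −1.07). Between replicates 1 and 2 the Hox genes differed by a median of 0.14 and at most 0.53, so these 9 differences are larger than any Hox difference between replicates 1 and 2. The first 8 genes were at least 1 above both other treated arrays, as were 1.08% of all genes and 2.11% of genes that passed the filter. No Hox gene was at least 1 below both, against 0.398% and 0.848%. Over the 39 genes the median difference was 0.26, with 29 above 0, against −0.01 over all genes.

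The difference was unequal along the paralogue numbers. Its median was 0.22 for group 1, 0.21 for group 2, 0.25 for group 3, 0.26 for group 4, 0.76 for group 5, 0.36 for group 6, 1.48 for group 7, −0.04 for group 8, 1.28 for group 9 and 0.70 for group 10. It was 0.02, −0.01 and 0.05 for groups 11, 12 and 13, where Hoxa13 was the only gene detected on all 3 treated arrays. Groups hold 2 to 4 genes each. By cluster the medians were 0.26 (A), 0.21 (B), 0.05 (C) and 0.40 (D). With the authors' deposited values, 31 of 39 genes were higher on replicate 3, the 2 additional genes being Hoxb13 and Hoxc8, which lay close to 0 on either scale. Hoxc9 alone was then at least 1 above both other arrays, and Hoxd10 differed by 0.82 and Hoxd8 by 0.54 in place of 2.12 and 1.59.

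**Figure D4:**
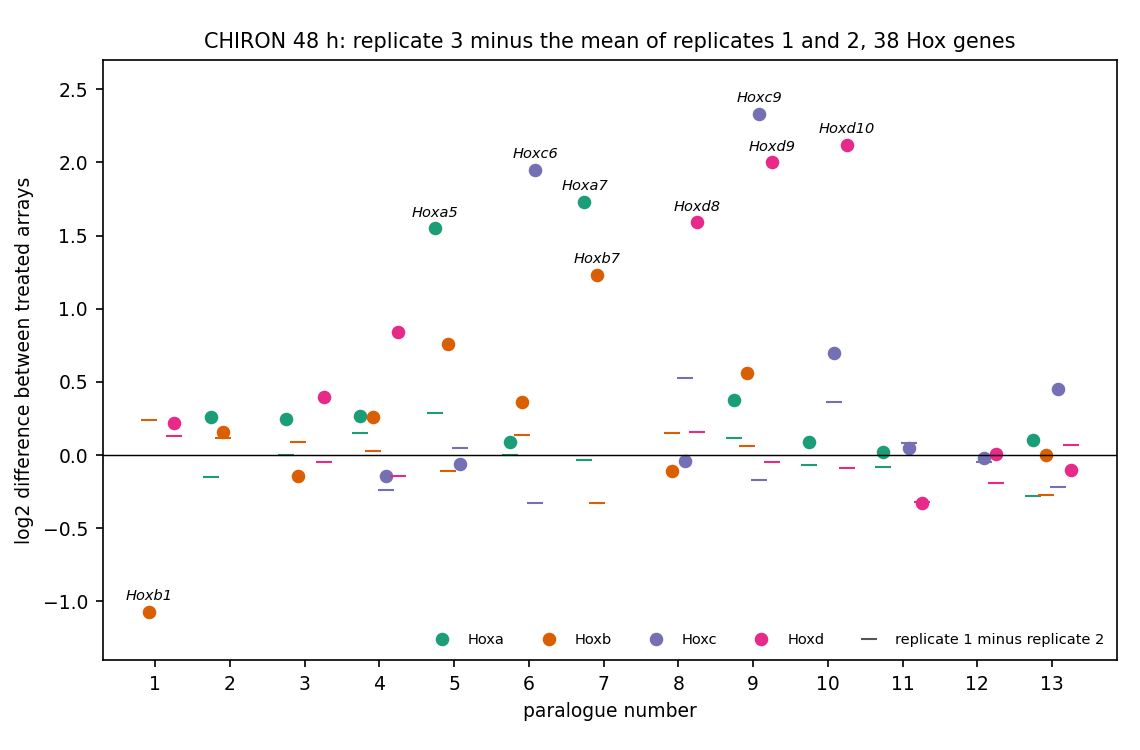
Log2 signal of treated replicate 3 minus the mean of treated replicates 1 and 2 for 38 Hox genes (circles, coloured by cluster) against paralogue number, with replicate 1 minus replicate 2 as dashes. Differences of at least 1 lie between paralogues 5 and 10 and are upward, up to 2.33 for Hoxc9, and Hoxb1 is the downward one at −1.07.

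Without treated replicate 3, the same 8 genes were called against dsRed2 negative cells, at smaller differences for 7 of them. The differences were 0.60 for Hoxa5, 0.97 for Hoxa7, 1.18 for Hoxb2, 0.81 for Hoxb7, 1.14 for Hoxc6, 0.80 for Hoxc9 and 0.70 for Hoxd9, and Hoxb1 was larger at 2.43 (limma, adjusted p between 6.78e-07 and 0.0053). The lower bounds became 1.09-fold for Hoxa5, 1.51-fold for Hoxa7, 1.35-fold for Hoxb7, 1.88-fold for Hoxc6, 1.39-fold for Hoxc9, 1.38-fold for Hoxd9 and 3.95-fold for Hoxb1. Against dsRed2 positive cells, these 8 genes were called too, at 0.64 for Hoxa5, 0.87 for Hoxa7, 2.45 for Hoxb1, 1.31 for Hoxb2, 0.67 for Hoxb7, 1.34 for Hoxc6, 0.82 for Hoxc9 and 0.68 for Hoxd9 (limma, adjusted p between 6.47e-07 and 0.00501), while Hoxa2 was lost and Hoxd11 gained. Without replicate 3, the spread of treated arrays in the fit came only from replicates 1 and 2. These differed less (SD 0.123) than same-numbered sorted arrays did (0.140 to 0.167). With replicates 1 and 2 averaged as 1 sample, these 8 genes were also called against dsRed2 negative cells (limma, adjusted p between 0.00031 and 0.0152). They were called against dsRed2 positive cells in that fit too. Markers of other cell types also moved with replicate 3. The summed linear level of 12 fibroblast and feeder genes was 1811, 1823 and 8917 on treated replicates 1, 2 and 3 and 984 to 2214 on the sorted arrays, with 5, 6 and 8 of the 12 detected on the treated arrays. The median of the 12 differences of replicate 3 from the mean of 1 and 2 was 0.64. Acta2, the brightest of the 12 on replicate 3 and so the largest part of its sum, read 10.20, 10.22 and 12.85. Col1a1 read 7.62, 7.62 and 9.35, Bgn 6.84, 6.85 and 8.68 and Prrx1 4.58, 4.96 and 5.95. Thy1, detected on every array, did not rise on replicate 3. It read 5.27, 5.41 and 5.25 on the treated and 7.14 to 8.09 on the sorted arrays. Dcn and Pdgfrb were detected on replicate 3 alone of the treated arrays, and Col1a2, Col3a1, Postn and Lum on none. The sum of 8 visceral or parietal endoderm genes was 2532, 2350 and 5655, but the median difference of the list was −0.02. Sparc (11.10, 10.97 and 12.32) and Dab2 (7.18, 7.15 and 8.53) were higher on replicate 3, Amn differed by −0.59 and Gata4 by −0.17, and Afp, Ttr and Cubn were not detected on any treated array. The sum of 10 epiblast genes was 15540, 15537 and 12253, against 16430 to 19031 on the sorted arrays. That of 6 definitive endoderm genes was 4070, 4475 and 3635, against 191 to 267 on the sorted arrays. All 6 were called higher against dsRed2 negative cells, as were 20.1% of all genes. The sum of 6 paraxial mesoderm genes was 474, 510 and 308, against 383 to 665 on the sorted arrays. For 8 lateral mesoderm and vessel genes it was 525, 552 and 767, and for 7 trophoblast genes 841, 869 and 1254. For 6 neural genes it was 312, 322 and 428, and of these Nes alone was detected on treated arrays. The median differences of these lists on replicate 3 were 0.02, 0.13 and 0.03, in that order. Msx1 (1.43) and Isl1 (−0.69) of the mesoderm list moved apart, as did Cdx2 (1.06) and Ascl2 (−0.72) of the trophoblast list. The part of any of these in the Hox values was not tested.

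The promoters of Hoxd8, Hoxd9 and Hoxd10 are shown because these adjoining genes read higher together on replicate 3. RefSeq promoters were at hand for 22 of the 39 Hox genes. Each line gives the 250 bases before the start on the plus strand of GRCm38.p6, at chr2:74704365-74704614 (Hoxd8), chr2:74697513-74697762 (Hoxd9) and chr2:74691641-74691890 (Hoxd10). Capitals mark matches on either strand to CTTTGAT, the core bound by TCF/LEF factors of Wnt signalling, AGGTCA, the half-site of retinoic acid receptors, CNATAAA, a CDX motif, and TGATNNAT, the PBX-HOX motif.
Hoxd8: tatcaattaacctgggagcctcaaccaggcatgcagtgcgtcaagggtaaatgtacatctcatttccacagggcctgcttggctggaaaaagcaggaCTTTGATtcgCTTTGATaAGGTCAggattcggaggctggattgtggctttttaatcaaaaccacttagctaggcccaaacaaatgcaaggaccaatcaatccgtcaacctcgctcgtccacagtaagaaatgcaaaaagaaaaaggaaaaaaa
Hoxd9: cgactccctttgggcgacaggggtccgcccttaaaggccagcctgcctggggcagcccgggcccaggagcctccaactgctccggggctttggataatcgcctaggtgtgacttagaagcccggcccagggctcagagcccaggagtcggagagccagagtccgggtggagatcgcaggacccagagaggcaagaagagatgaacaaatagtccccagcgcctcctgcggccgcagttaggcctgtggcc
Hoxd10: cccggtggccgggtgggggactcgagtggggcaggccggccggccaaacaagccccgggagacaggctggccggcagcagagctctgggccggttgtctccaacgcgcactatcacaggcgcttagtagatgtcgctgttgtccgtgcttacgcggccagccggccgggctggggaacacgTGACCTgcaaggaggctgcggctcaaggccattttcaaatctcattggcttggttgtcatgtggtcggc
Hoxd8 holds CTTTGAT at bases -153 to -147 and -143 to -137, followed by AGGTCA at -135 to -130, without overlap. Hoxd10 holds AGGTCA on the opposite strand at -69 to -64, and the Hoxd9 window holds none of the 4 motifs. Over 32851 promoter windows of the same length, CTTTGAT occurred in 3.21%, AGGTCA in 14.0%, CNATAAA in 9.81% and TGATNNAT in 7.68%. Among the 22 Hox genes, CTTTGAT was found for 1, AGGTCA for 6, CNATAAA for 2 and TGATNNAT for 4, these last being Hoxa2, Hoxb1, Hoxb8 and Hoxd11. A match of letters is a description and not a site shown to be bound.

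Of the CDX factors, which bind Hox clusters and extend the trunk, Cdx2 was the one called between treated and sorted cells. Cdx2 read 4.28, 4.54 and 4.52 in dsRed2 positive, 4.21, 4.71 and 4.40 in dsRed2 negative and 7.82, 7.67 and 8.81 in treated cells. It was detected on no sorted array and rose at least 10.5-fold over dsRed2 negative (limma, adjusted p = 3.82e-06) and at least 10.4-fold over dsRed2 positive cells (limma, adjusted p = 3.81e-06), with treated replicate 3 the highest. Cdx1 was detected on 1 dsRed2 positive, 2 dsRed2 negative and 2 treated arrays. It did not pass the test (0.10 ± 0.16 from either group, limma adjusted p = 0.671 and 0.672), and Cdx4 was detected on no array. Of the 6 Cdx and ParaHox genes listed, 2 were tested and 1 was higher in treated cells in either comparison. Of all genes tested, 20.1% were higher against dsRed2 negative and 20.6% against dsRed2 positive cells.

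Of 9 Hox cofactor genes tested, 2 were higher and 1 lower against dsRed2 negative cells, and 4 higher and 2 lower against dsRed2 positive cells, where 20.1% and 19.9%, and 20.6% and 20.5%, of all genes were called. Meis3 read 5.76, 5.73 and 5.81 in treated cells and 4.48 to 5.07 in sorted cells, and rose by 1.15 ± 0.14 over dsRed2 negative cells (limma, adjusted p = 0.000144). Meis1, whose product binds DNA with HOX and PBX proteins, read 5.34, 5.07 and 6.49 in treated cells and 4.45, 5.15 and 4.57 in dsRed2 negative cells, which overlapped. Its rise of 0.91 ± 0.32 (limma, adjusted p = 0.0423) was not called without treated replicate 3 (0.48, limma adjusted p = 0.0934), nor without negative replicate 1 or 3 or any positive replicate (limma, adjusted p between 0.0532 and 0.133). Pbx4 fell by 1.02 ± 0.16 (a change of −1.02; limma, adjusted p = 0.000688).

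Genes next to the clusters were called in both directions. Of 16 neighbours tested, 2 were higher and 5 lower against dsRed2 negative cells, with a median difference of 0.00 (log2), against −0.01 over all genes, of which 20.1% were higher and 19.9% lower. After scaling by the median of each array, 3 were higher and 1 lower, and Skap2, Smug1, Hibadh and Cbx5 were no longer called lower. Evx1, a homeobox gene beside Hoxa13 that is active in the primitive streak, read 4.60, 4.30 and 4.52 in dsRed2 negative and 7.48, 7.43 and 9.42 in treated cells, and rose at least 10.5-fold (limma, adjusted p = 0.000102). Its treated replicate 3 was the highest, and without it the rise was at least 6.68-fold (2.98 on the log2 scale; limma, adjusted p = 6.17e-07). Snx10 rose by 0.83 ± 0.14 (limma, adjusted p = 0.000819). Calcoco1 had a difference of −0.96 ± 0.14 (limma, adjusted p = 0.000394), which was −0.33 ± 0.14 against dsRed2 positive cells (limma, adjusted p = 0.0804). Hibadh (−0.60 ± 0.15; limma, adjusted p = 0.00968) and Cbx5 (−0.46 ± 0.11; limma, adjusted p = 0.00626) fell, with −0.43 (limma, adjusted p = 0.0931) and −0.21 (limma, adjusted p = 0.481) after that scaling.

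Polycomb complexes hold Hox clusters silent and trithorax proteins keep them active. Of 25 such genes tested, 4 were higher and 6 lower against either sorted group, in all close to the 40.0% and 41.1% of all genes called. After scaling by the median of each array, 5 were higher and 3 lower against dsRed2 negative cells. Against dsRed2 positive cells 4 were higher and 3 lower, so the number called lower depended on the scaling. Cbx7 and Cbx2, alternative readers within Polycomb complex 1, changed in opposite directions: Cbx7 read 8.26 to 8.64 in sorted and 6.57, 6.25 and 5.82 in treated cells (−2.27 ± 0.18; limma, adjusted p = 9.49e-06), and Cbx2 read 5.54 to 5.87 in sorted and 7.13, 7.28 and 6.73 in treated cells (1.37 ± 0.16; limma, adjusted p = 8.54e-05). Phf19, a partner of Polycomb complex 2, fell (−1.39 ± 0.18; limma, adjusted p = 0.000175), as did Kdm6a, which removes the Polycomb mark (−0.93 ± 0.14; limma, adjusted p = 0.000469). These are differences from dsRed2 negative cells. Treated and sorted arrays did not overlap for Cbx7 and Cbx2.

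Retinoic acid genes, hindbrain regulators and trunk regulators were looked at as inputs to Hox genes. Of 13 retinoic acid genes tested, 6 were higher and 3 lower against dsRed2 negative cells, with 20.1% and 19.9% of all genes. Cyp26a1, which degrades retinoic acid, read 5.21, 5.80 and 5.24 in dsRed2 negative and 10.66, 10.33 and 10.60 in treated cells (5.11 ± 0.21; limma, adjusted p = 7.31e-08). The receptor genes Rxra (−1.47 ± 0.14; limma, adjusted p = 2.7e-05) and Rarg (−0.88 ± 0.13; limma, adjusted p = 0.000415) fell. Of 4 hindbrain regulators tested, 2 were higher and 0 lower against dsRed2 negative cells, with 20.1% and 19.9% of all genes. Otx2, a forebrain and epiblast gene, was 1 of the 2 and rose by 1.22 ± 0.40 (limma, adjusted p = 0.0333). Its call was lost without treated replicate 1 or 2 or negative replicate 2 or 3 (limma, adjusted p between 0.0651 and 0.115).

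Of 11 trunk and tail regulators tested, 6 were higher and 2 lower against dsRed2 negative cells, with 20.1% and 19.9% of all genes. T, the streak and notochord factor brachyury, read 5.28, 7.07 and 6.09 in dsRed2 negative and 12.15, 12.01 and 11.29 in treated cells (5.67 ± 0.48; limma, adjusted p = 1.42e-05). Wnt5a, a Wnt ligand of streak and tail bud, read 4.24 to 4.30 in dsRed2 negative and 8.18, 8.05 and 9.23 in treated cells, at least 13.7-fold higher (limma, adjusted p = 1.17e-06), and Fgf8 rose by 3.81 ± 0.44 (limma, adjusted p = 0.000102). On treated replicate 3 against the mean of 1 and 2, Cdx2 was higher by 1.06, Evx1 by 1.96, Wnt5a by 1.12 and Meis1 by 1.29. T (−0.79), Fgf8 (−0.52) and the paraxial mesoderm factor Tbx6 (−2.12), which read 7.27, 7.26 and 5.14 and was named after its values were seen, lay lower there, as did Hoxb1.

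**Figure D5:**
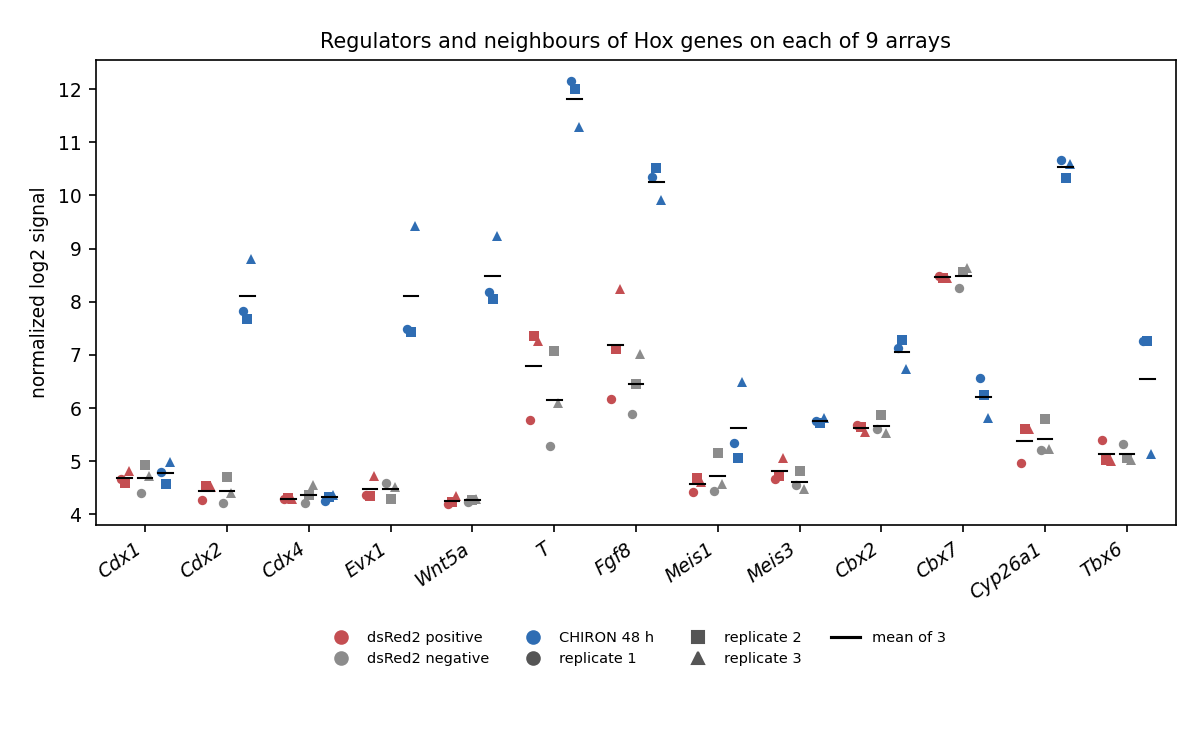
Normalized log2 signal (vertical axis) of 13 regulators or neighbours of Hox genes on each array, coloured by group, with replicates 1, 2 and 3 as circles, squares and triangles and the mean of 3 as a bar. Treated replicate 3 is the highest treated array for Cdx2, Evx1, Wnt5a and Meis1, and the lowest for T, Fgf8, Cbx2, Cbx7 and Tbx6 (Tbx6 5.14 against 7.27 and 7.26).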

How the data were processed

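Total RNA of 9 samples was amplified, biotin-labelled and hybridised to Illumina bead arrays, per the labels. Linear signal intensity for each probe, not normalized, was taken as deposited, per the file headers. Detection p-values were likewise those deposited by the authors. The authors' deposited log2 values (lumi, per the submitters' processing notes; method and version not given in the sources used here) served as an alternative.

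Signals were normalized with neqc of limma 3.58.1 in R 4.3.3 (normexp, its negative-control mean and variance estimated through detection p-values, offset 16, quantile, log2). The filter kept 19074 probes detected (p-value under 0.05) on 3 or more of 9 arrays; of a gene's kept probes the brightest on average was used, for 13204 genes. Hox genes that did not pass are given by detection. lmFit and eBayes were fitted to 9 arrays with group as the only term; p-values are two-sided with Benjamini-Hochberg adjustment over all genes at 0.05. For a lower bound, each array of the dim group took its lowest detected signal or the probe's own, whichever was higher, and the bright group's mean was set against the mean of these. Symbols are those of the signal table, updated through RefSeq; 1 probe that an old synonym would assign to Hoxd11 kept its file name. Of the listed genes, 4 are under no symbol of the table used here. The script was tested on simulated data.

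Same-numbered positive and negative arrays were taken as paired because their deviations from group means correlated (0.538, 0.586 and 0.353). With treated arrays of the same number they ranged from −0.145 to 0.101. Where replicates are not separate cultures, p-values measure only the spread between these samples. The number of arrays limits the precision. The Hox genes, context lists and tests were chosen with earlier results of these data known. Of the context lists, up to 4 genes per list and comparison with the smallest p, Cdx1, Cdx2, Cdx4, Evx1 and Cyp26a1 are named; the 4 motifs and the promoters shown were chosen after the values were seen. Some genes within these rules are counted but not reported by name here.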

Additional observations from a re-analysis of the deposited data

How the results depend on the processing

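No Hox difference called here changed direction under any alternative run. The genes Hoxa7, Hoxb1, Hoxb2, Hoxb7 and Hoxc6 were called in all 22 alternatives of both comparisons; Hoxa5 lost its call in 4 of 21 in each, Hoxc9 in 8 and 6 of 22, Hoxd9 in 8 of 22 in each and Hoxa2 in 17 of 21 against dsRed2 positive cells. With a normexp offset of 50 the count of Hox genes called fell to 5 against dsRed2 negative and 5 against dsRed2 positive cells. Leaving out each replicate in turn gave 5 to 9 called genes against dsRed2 negative (5 without negative replicate 1 or 3) and 5 to 9 against dsRed2 positive cells (5 without positive replicate 1). With replicate number as a block, 8 and 8 were called in fits of the 6 arrays compared and 9 and 8 in the fit of 9 arrays, with 0 between the sorted groups; the block moved no count of Hox genes by over 1.5 times.

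Scaling by the median of each array called 8 and 8 Hox genes, moved the median difference of all genes from −0.01 to 0.14 against dsRed2 negative cells, and split all called genes into 2816 higher and 1282 lower in place of 2652 and 2634. Against dsRed2 positive cells the split was 2720 and 1420 in place of 2717 and 2708. Without the filter, 39 Hox genes were tested and 6 and 7 called, Hoxb4 among them in both comparisons. Of all 28909 genes in that run, 2444 were higher and 2344 lower against dsRed2 negative cells. Against dsRed2 positive cells 2517 were higher and 2423 lower.

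Hox genes detected in dsRed2 positive, dsRed2 negative and treated cells numbered 1, 0 and 9 at a detection p-value below 0.01, 5, 7 and 27 with 1 detecting array, 4, 3 and 16 with 2, and 0, 0 and 9 where all probes of a gene had to be detected. Shares over all genes are not given for these settings, so the counts show only how the Hox numbers move. Leaving out each replicate gave 2 to 3, 1 to 2 and 13 to 14. Hox genes that replicate 3 alone detected numbered 9, also at a detection p-value below 0.01. Those at least 1 (log2) above both other treated arrays numbered 8, and 1 with the deposited values. Differences were smaller on the deposited scale (0.82 against 2.12 for Hoxd10), so the same cut is stricter there. Of the Hox genes at least 1 apart on the main scale, 0 changed sign with the deposited values. Signal over background limits what can be shown: 26 of 39 Hox genes did not pass the filter.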
